A study of Mus musculus with 6 samples.

Results

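The genes described here are 10 members of the dual specificity phosphatase family that act on, or are grouped with those that act on, MAP kinases: Dusp1, Dusp2, Dusp4, Dusp5, Dusp6, Dusp7, Dusp8, Dusp10, Dusp14 and Dusp16. They were taken by symbol, and all 10 were among the 24346 gene symbols measured. These genes and the other gene lists were chosen with earlier results of these data known. Their counts and medians beside those of all genes are thus descriptions. RNA sequencing was done on 6 libraries of hepatic stellate cells, liver pericytes that store vitamin A and make matrix after injury, from wild type C57BL/6 mice aged 35 weeks. The libraries of cells isolated by perfusion at 37 degrees came from the tumour region of livers of mice fed a high-fat diet, from the non-tumour region of such livers, and from livers of mice fed a normal diet, and the same 3 sources gave the libraries of 6 degrees. Every group thus held 1 library, sorted for CD49a and against CD31 and CD45.2, and the question of the study was what the warm isolation does to the transcriptome. The labels do not say how the tumours arose, how long the diet was given or how many animals a library held. Nothing in the labels says that libraries came from separate animals. With 1 library per group, p-values rest on how far the sources disagree in their temperature difference, not on a spread between animals. That disagreement may be technical or a true difference between sources.

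Levels are FPKM (fragments scaled to transcript length and to the mapped fragments of the library), and the libraries held an estimated 1.60e+07 to 2.25e+07 fragments. Stellate cell markers were high in all 6 libraries, where Lrat lay between 335 and 538 FPKM and the sum of 12 such markers between 12116 and 21405 FPKM. The sort marker Itga1 (CD49a) was at 179, 204 and 90.5 FPKM in the tumour, non-tumour and normal diet libraries of 37 degrees, against 172, 161 and 87.6 FPKM in those of 6 degrees. Transcripts of sorted-out cells were present and lower at 37 degrees: the sum of 10 endothelial markers was 356, 412 and 68.3 FPKM at 37 degrees, against 1291, 2587 and 1005 FPKM at 6 degrees. The sum of 10 macrophage markers was 701, 30.6 and 39.4 FPKM at 37 degrees, against 1762, 486 and 426 FPKM at 6 degrees. Of 5 cholangiocyte markers, Krt19, Krt7 and Epcam did not exceed 0.118 FPKM in any library and Sox9 did not exceed 1.51 FPKM, while Spp1, at 3.79 to 59.5 FPKM, made up most of the list's sum of 4.45 to 60.6 FPKM. Of 4 mesothelial markers Msln was listed at 0 in all 6 libraries, and Wt1 was at 0.144 to 0.790 FPKM in the high-fat libraries, against 4.54 and 2.94 FPKM in normal diet at 37 and 6 degrees.

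Dual specificity phosphatases remove phosphate from both the threonine and the tyrosine of the activation loop of MAP kinases, and so switch ERK, p38 and JNK off. Several of the genes are themselves switched on by the kinases that their products act on, which makes them negative feedback regulators. The products of Dusp1, Dusp2, Dusp4 and Dusp5 are nuclear and inducible, those of Dusp6 and Dusp7 are cytoplasmic and act on ERK, and those of Dusp8, Dusp10 and Dusp16 act mainly on JNK and p38. Dusp14 encodes a small phosphatase without the MAP kinase-binding domain of the others.

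Upstream sequences of 4 of the genes are shown because Dusp1 and Dusp8 both hold a complete cyclic AMP response element (CRE), Dusp5 holds serum response elements, and Dusp6 holds none of the motifs searched. Each runs from 250 to 51 bases before the start that the RefSeq promoter table gives the gene (GRCm38.p6), written 5′ to 3′ on the strand of the gene. For Dusp1, Dusp2, Dusp5, Dusp6 and Dusp10 that start is the outer end of the RefSeq gene span. For Dusp7, Dusp8, Dusp14 and Dusp16 it lies 72, 623, 899 and 14435 bases inside the span, so the Dusp8 stretch shown lies within the annotated span and downstream of its outermost start. Capitals mark the CRE, the 5-base CRE core and the CArG box, the core of the serum response element. The regions are chr17:26508523-26508722 on the minus strand for Dusp1, chr7:142095335-142095534 on the minus strand for Dusp8, chr19:53528895-53529094 on the plus strand for Dusp5 and chr10:99262981-99263180 on the plus strand for Dusp6.
Dusp1: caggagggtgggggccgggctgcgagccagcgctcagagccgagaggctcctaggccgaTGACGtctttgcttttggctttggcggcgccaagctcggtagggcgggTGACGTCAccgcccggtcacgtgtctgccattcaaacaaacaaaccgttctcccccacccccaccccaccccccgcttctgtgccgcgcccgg
Dusp8: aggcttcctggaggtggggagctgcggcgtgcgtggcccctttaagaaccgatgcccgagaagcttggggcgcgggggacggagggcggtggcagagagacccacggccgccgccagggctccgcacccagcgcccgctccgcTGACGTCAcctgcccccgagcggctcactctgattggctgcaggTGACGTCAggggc
Dusp5: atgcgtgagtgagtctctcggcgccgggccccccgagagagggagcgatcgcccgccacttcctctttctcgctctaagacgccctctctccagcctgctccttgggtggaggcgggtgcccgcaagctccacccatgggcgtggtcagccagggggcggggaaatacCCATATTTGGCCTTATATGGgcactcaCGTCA
Dusp6: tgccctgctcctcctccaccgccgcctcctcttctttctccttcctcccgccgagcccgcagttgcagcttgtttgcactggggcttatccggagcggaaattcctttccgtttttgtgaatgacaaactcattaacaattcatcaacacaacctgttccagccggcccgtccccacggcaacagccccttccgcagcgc

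A RefSeq upstream sequence was found for 9 of the 10 genes, Dusp4 being the other. Both strands of the 250 bases before that start were searched in all 9, and positions are counted from it. The CRE, TGACGTCA, was found in 2 of the 9, Dusp1 and Dusp8, against 1.55% of 32851 promoters of the same length and 2.59% of the 11273 promoters of tested genes. In Dusp1 it lay 143 to 136 bases before the start, and Dusp8 had a pair of copies, 107 to 100 and 63 to 56 bases before it. The CRE core TGACG, which every CRE contains, was found in 4 of 9 (Dusp1, Dusp5, Dusp8 and Dusp16) against 17.8% of all promoters and 27% of those of tested genes. The CArG box was found in Dusp5 only, in adjoining copies 82 to 73 and 72 to 63 bases before the start, against 1.47% of all promoters and 1.13% of those of tested genes. Of the other motifs, the heat shock element pair GAANNTTC was found in Dusp16, against 6.69% of all promoters and 5.09% of those of tested genes. The ETS core CCGGAA was found in Dusp14, against 12 and 22.3%. The AP-1 site TGANTCA (6.75 and 4.45%) and the EGR site GCGTGGGCG (0.536 and 1.06%) were found in none of the 9. Nor were the NF-kB site (7.25 and 8.85%) and the TATA box TATAAA (12.4 and 6.33%). A match gives letters in this window and says nothing of use by a factor.

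**Figure D1:**
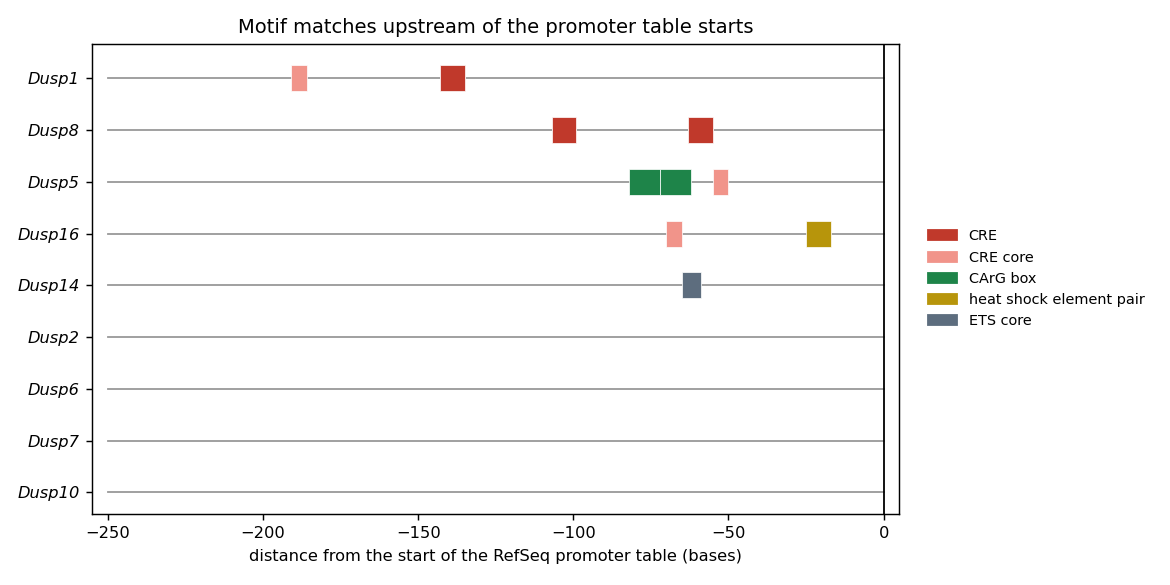
Positions of motif matches in the 250 bases upstream of the start in the RefSeq promoter table for 9 phosphatase genes, with distance from that start in bases on the x axis and 1 gene per line; for Dusp7, Dusp8, Dusp14 and Dusp16 that start lies inside the RefSeq gene span. Dusp1 has a CRE and Dusp8 a pair of them, Dusp5 has adjoining CArG boxes, and 4 genes hold no match to the 9 motifs searched.

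Dusp1 was the dominant transcript of the set in every library. It made up 92.9, 84.0 and 88.1% of the summed FPKM of the 10 genes in the tumour, non-tumour and normal diet libraries of 37 degrees, against 77.1, 77.7 and 73.4% in those of 6 degrees. Among all gene symbols it ranked 16, 60 and 36 by FPKM at 37 degrees, against 80, 63 and 275 at 6 degrees. Dusp6, Dusp5 and Dusp10 followed, with medians over the 6 libraries of 115, 42.8 and 21.3 FPKM. Dusp7, Dusp4, Dusp16, Dusp8 and Dusp2 had medians between 1.07 and 8.06 FPKM, and Dusp14 had 0.187 FPKM. In no library did these lower genes reach the level of Dusp10. Going down this order, the ranges of neighbours over the 6 libraries overlapped except between Dusp1 and Dusp6, Dusp10 and Dusp7, and Dusp7 and Dusp4.

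**Figure D2:**
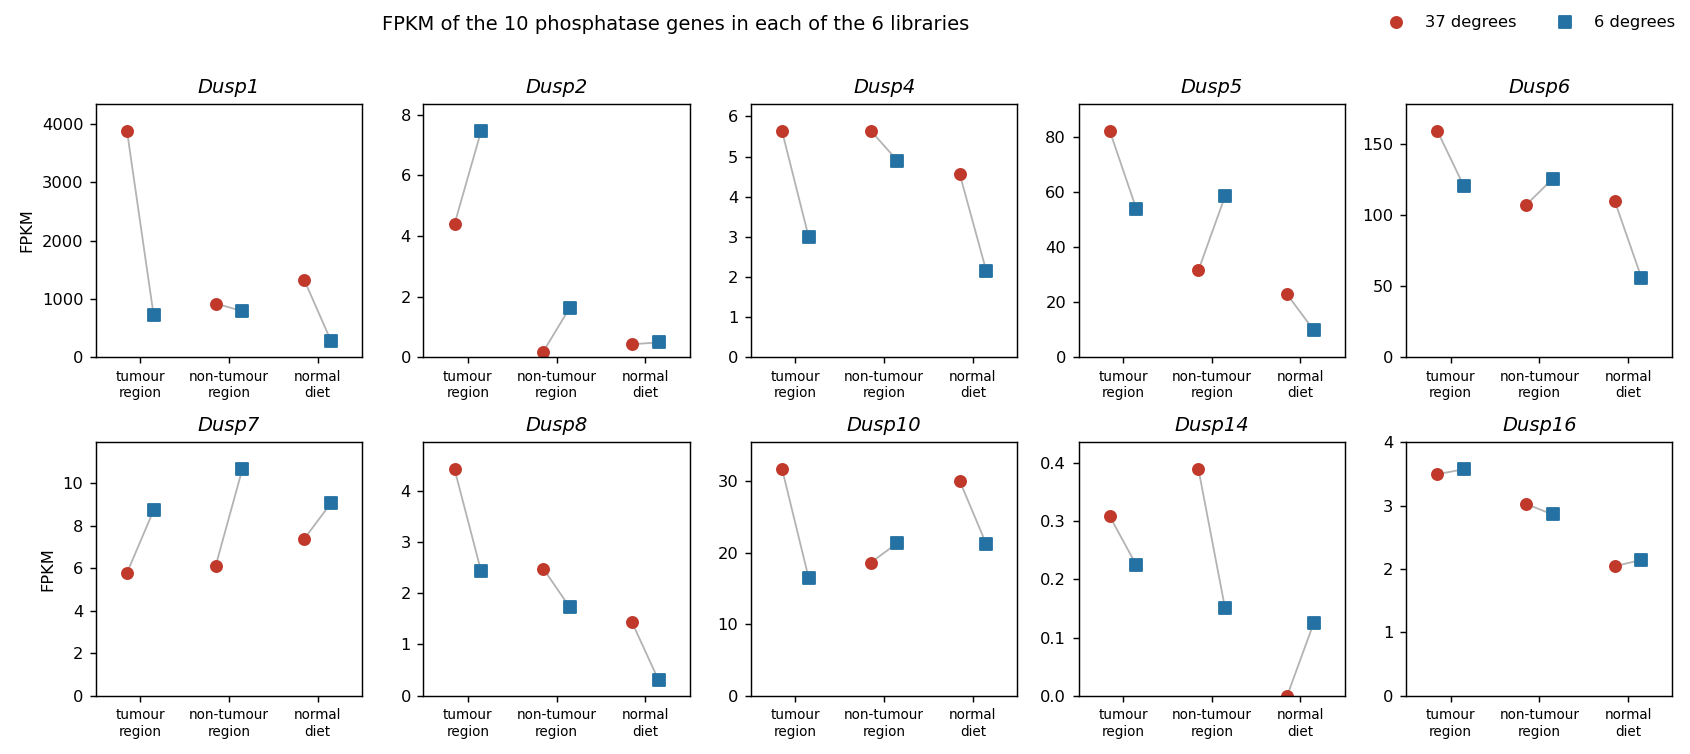
FPKM (y axis, linear, from 0) of the 10 phosphatase genes in each of the 6 libraries, by liver source (x axis) and isolation temperature (circles 37 degrees, squares 6 degrees); a grey line joins the libraries of a source, and there is 1 library per point, so no error bar. Dusp1 spans 279 to 3880 FPKM, and its circles lie above all of its squares, whereas the circles of Dusp7 lie below all of its squares.

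The first comparison was between isolation at 37 and at 6 degrees, over 3 pairs of libraries. None of the 9 phosphatase genes tested passed at a limma adjusted p under 0.05, the threshold used throughout, against 5.13% of the 11559 genes tested (0.510% higher and 4.62% lower at 37 degrees). At an unadjusted p under 0.05, 3 of 9 were higher (Dusp1, Dusp4 and Dusp8) against 8.52% of all genes, and 2 of 9 were lower (Dusp2 and Dusp7) against 12.1%. Dusp14 was under the filter of a mean of 1 FPKM and was not tested. The median difference of the 9 was 0.38 on the log2(FPKM + 1) scale, against 0.01 for all genes tested. The 12 stellate cell markers had a median of 0.37 in the same direction, with 12 of 12 positive and 4 that rose at 37 degrees (Cygb, Hand2, Hgf and Lrat), and their part in the phosphatase values was not tested. That scale understates differences of genes at low levels. In single pairs of libraries, which allow no test, Dusp1 was past 2-fold higher at 37 degrees in the tumour region (1.96% of all genes), Dusp1 and Dusp5 were in normal diet (0.779%), and none was in the non-tumour region (0.225%), where Dusp2 was past 2-fold lower (5.75%).

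Dusp1, the stress-inducible nuclear phosphatase of p38, JNK and ERK (chromosome 17, 26505591 to 26508472 in GRCm38), was at 3880, 922 and 1318 FPKM in the tumour, non-tumour and normal diet libraries of 37 degrees. In the same sources at 6 degrees it was at 726, 792 and 279 FPKM. All libraries of 37 degrees lay above all of 6 degrees, as did those of 8.31% of genes tested. The size of the difference varied between sources: Dusp1 was 5.34-fold higher at 37 degrees in the tumour region, 1.16-fold in the non-tumour region and 4.72-fold in normal diet. Over the 3 pairs the log2 difference was 1.62 ± 0.44 (SE, limma adjusted p = 0.119). Without the non-tumour pair it was 2.33 with adjusted p = 0.0148, and over its 10 alternatives the adjusted p ranged from 0.0148 to 0.442. An annotated GENCODE model of Dusp1 overlaps Ergic1 on the other strand, and Ergic1 lay between 40.4 and 65.0 FPKM.

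Dusp2, a nuclear ERK phosphatase best known from immune cells (chromosome 2, 127336159 to 127338377), was at 4.40, 0.189 and 0.430 FPKM in the tumour, non-tumour and normal diet libraries of 37 degrees, against 7.46, 1.64 and 0.494 FPKM in those of 6 degrees. Each library of 37 degrees was below its partner of 6 degrees, and the groups overlapped, since the tumour library of 37 degrees was above the other 2 of 6 degrees. It differed by -0.62 ± 0.23 on the log2 scale (SE, limma adjusted p = 0.221). The lowest values stood for few reads, an estimated 5 and 13 fragments in the non-tumour and normal diet libraries of 37 degrees. In bulk RNA, fewer cells of a type and less RNA per cell cannot be told apart. Ptprc, the CD45 gene of blood cells, was at 5.44, 0.375 and 0.397 FPKM at 37 degrees, against 16.5, 2.73 and 1.75 FPKM at 6 degrees, and its part in the Dusp2 values was not tested.

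Dusp4, a nuclear phosphatase of ERK and JNK (chromosome 8, 34807610 to 34819894), was at 5.63, 5.64 and 4.58 FPKM in the tumour, non-tumour and normal diet libraries of 37 degrees, against 2.99, 4.90 and 2.16 FPKM in those of 6 degrees. Every pair was higher at 37 degrees, and the groups overlapped only through the normal diet library of 37 degrees, which was below the non-tumour library of 6 degrees. This gave a log2 difference of 0.57 ± 0.17 (SE, limma adjusted p = 0.137). Dusp5, a nuclear phosphatase specific for ERK (chromosome 19, 53529145 to 53541809), was at 82.4, 31.7 and 22.9 FPKM at 37 degrees, against 54.0, 58.6 and 9.83 FPKM at 6 degrees. Its pairs did not share a direction: the 37 degree library was 1.53-fold higher in the tumour region, at 0.541 of its partner in the non-tumour region, and 2.33-fold higher in normal diet. The log2 difference over the pairs was 0.29 ± 0.37 (SE, limma adjusted p = 0.705).

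Of the cytoplasmic ERK phosphatases, Dusp6 (chromosome 10, 99263231 to 99267489), a feedback inhibitor of growth factor signalling, was at 159, 107 and 110 FPKM in the tumour, non-tumour and normal diet libraries of 37 degrees, against 120, 125 and 56.0 FPKM in those of 6 degrees. The groups overlapped, the normal diet library of 6 degrees stood lowest, and the non-tumour pair ran the other way from the other 2. The log2 difference was 0.38 ± 0.22 (SE, limma adjusted p = 0.395). Its close relative Dusp7 (chromosome 9, 106368560 to 106375724) was at 5.78, 6.11 and 7.39 FPKM at 37 degrees, against 8.72, 10.7 and 9.07 FPKM at 6 degrees. All libraries of 37 degrees lay below all of 6 degrees, as did those of 9.40% of genes tested. The log2 difference was -0.50 ± 0.12 (SE, limma adjusted p = 0.103), and the adjusted p ranged from 0.0990 to 0.460 over its alternatives.

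Among the phosphatases of JNK and p38, Dusp8 (chromosome 7, 142079487 to 142095907) was at 4.42, 2.48 and 1.43 FPKM in the tumour, non-tumour and normal diet libraries of 37 degrees, against 2.42, 1.72 and 0.301 FPKM in those of 6 degrees. Each pair was higher at 37 degrees, while the groups overlapped, since the tumour library of 6 degrees was above the normal diet library of 37 degrees. Its estimated log2 difference was 0.64 ± 0.16 (SE, limma adjusted p = 0.102). Dusp10 (chromosome 1, 184034381 to 184075636) was at 31.7, 18.6 and 30.1 FPKM at 37 degrees, against 16.4, 21.4 and 21.2 FPKM at 6 degrees, with the non-tumour library of 37 degrees among those of 6 degrees. Its log2 difference was 0.40 ± 0.21 (SE, limma adjusted p = 0.352). Dusp16 (chromosome 6, 134715468 to 134807063) was at 3.50, 3.03 and 2.04 FPKM at 37 degrees, against 3.57, 2.86 and 2.14 FPKM at 6 degrees. The members of each Dusp16 pair lay close together, and the log2 difference of -0.00 ± 0.12 (SE, limma adjusted p = 0.989) was the smallest of the 9.

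Dusp14 (chromosome 11, 84048033 to 84069256) was at 0.308 and 0.389 FPKM in the tumour and non-tumour libraries of 37 degrees and listed at 0 in that of normal diet, against 0.224, 0.150 and 0.125 FPKM in the 3 libraries of 6 degrees. These values stood for an estimated 10 fragments or fewer per library, so no difference was detectable at this depth.

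**Figure D3:**
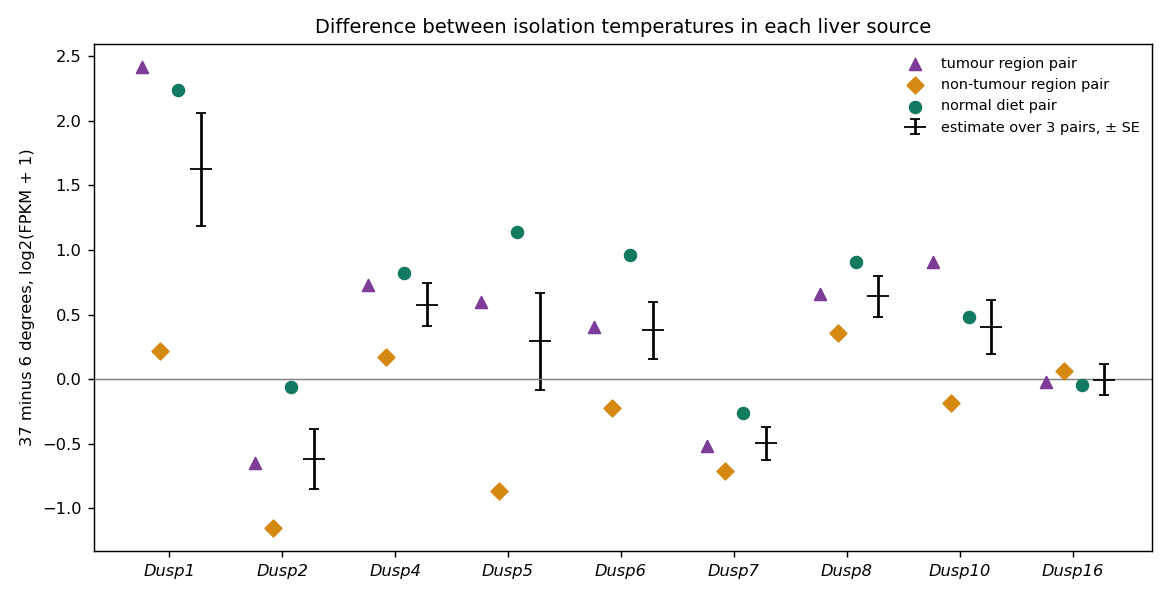
Differences between 37 and 6 degrees on the log2(FPKM + 1) scale (y axis) for the 9 phosphatase genes tested, with 1 point per liver source and, in black, the limma estimate over the 3 pairs with its SE. For every gene plotted except Dusp16 the non-tumour pair lies below the other 2. It is at 0.22, -0.87, -0.23 and -0.19 for Dusp1, Dusp5, Dusp6 and Dusp10.

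The next question was whether the temperature difference was alike in the 3 sources. In the non-tumour pair 8 of the 9 genes had a smaller or more negative 37 degree difference than the mean of the tumour and normal diet pairs, with a median of -0.80 on the log2 scale against -0.01 for all genes tested. For Dusp1 the non-tumour difference was 2.11 ± 0.17 below that mean (SE, limma unadjusted p = 1.23e-04), and it did not pass after adjustment (adjusted p = 0.204). Dusp5 stood 1.74 ± 0.29 below (unadjusted p = 0.00286), Dusp6 0.91 ± 0.28 below (unadjusted p = 0.0277) and Dusp10 0.88 ± 0.27 below (unadjusted p = 0.0252), with limma adjusted p = 0.9998 for each. So 4 of 9 were under an unadjusted p of 0.05 in this test, against 2.34% of all genes, of which 270 were under that level and 0% passed after adjustment by limma. This fit leaves 1 residual degree of freedom, and the non-tumour value rests on 1 pair of libraries.

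The same test for the normal diet pair gave 1 of 9 at an unadjusted p under 0.05, against 5.23% of all genes: the Dusp6 difference was 0.87 ± 0.30 larger in normal diet than the mean of the other 2 sources (SE, limma adjusted p = 0.917). For the tumour pair it gave 0 of 9 at an unadjusted p under 0.05, against 7.41% of all genes. Again 0% of the 11559 genes passed limma's adjusted threshold, while 605 and 857 were at an unadjusted p under 0.05 in the normal diet and the tumour test.

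The immediate early genes, the first transcripts induced by kinase signalling and stress, stood beside Dusp1 in this pattern. The summed FPKM of 13 of them (Fos, Jun, Egr1, Ier2, Atf3 and others) was 15235, 1900 and 5533 in the tumour, non-tumour and normal diet libraries of 37 degrees, against 1395, 1422 and 691 in those of 6 degrees. None of the 12 tested passed for temperature, and the median difference was 2.13. At an unadjusted limma p under 0.05, 10 of 12 were higher, against 8.52% of all genes. Their median 37 degree difference was 3.31 in the tumour pair, 0.40 in the non-tumour pair and 3.07 in the normal diet pair. For 11 of 12 the non-tumour difference was below that of the other sources at an unadjusted limma p under 0.05. Of all genes, 2.34% were under that level in either direction. Dusp1 and the sum of these genes had the same order over the 6 libraries, from the tumour library of 37 degrees at the top to the normal diet library of 6 degrees at the bottom.

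The second comparison set cells of the tumour region against cells of normal diet livers, over the pair of libraries at each temperature. Diet and region change together in this comparison and cannot be told apart. Here and below, a rise or fall in the tumour region means against normal diet. Dusp2 and Dusp8 rose in the tumour region, 2 of 9 genes against 9.35% of all genes tested (6.07% higher and 3.28% lower). The median of the 9 was 0.81 on the log2 scale, against 0.01 for all genes. At an unadjusted p under 0.05, 6 of 9 were higher, against 15.4% of all genes. In single pairs Dusp1, Dusp2, Dusp5 and Dusp8 were past 2-fold higher in the tumour region at 37 degrees (6.41% of all genes), and these 4 and Dusp6 were at 6 degrees (4.59%).

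Dusp2 was at 4.40 and 7.46 FPKM in the tumour region at 37 and 6 degrees, against 0.430 and 0.494 FPKM in normal diet. The tumour libraries were 10.2-fold higher at 37 degrees and 15.1-fold higher at 6 degrees and did not overlap with those of normal diet. The share of all genes without such an overlap was not counted, here or for Dusp5, Dusp6, Dusp8 and Dusp16 below, which did not overlap either. The log2 difference was 2.21 ± 0.28 (SE, limma adjusted p = 0.0144). It did not pass without the tumour library of 37 degrees (adjusted p = 0.0536), without the normal diet library of 6 degrees (adjusted p = 0.0508) or without a temperature term (adjusted p = 0.118), in a range of 0.0138 to 0.118 over its 12 alternatives, and with a pseudocount of 0.1 FPKM the log2 difference was 3.38. Macrophage markers were higher in the tumour region too, and 5 of 9 tested rose. Their sum was 701 and 1762 FPKM in the tumour region at 37 and 6 degrees, against 39.4 and 426 FPKM in normal diet. Dusp2 and this sum had the same order over the 6 libraries. In the non-tumour region the sum was 30.6 and 486 FPKM at 37 and 6 degrees, and Dusp2 was at 0.189 and 1.64 FPKM. In normal diet the sum differed widely between temperatures and Dusp2 was at 0.430 and 0.494 FPKM, an estimated 13 and 18 fragments. The sum of 5 neutrophil markers was 10.4 and 62.0 FPKM in the tumour region, against 1.56 and 2.21 FPKM in normal diet, and that of 6 lymphocyte markers was 3.81 and 9.90 FPKM, against 0.592 and 1.39 FPKM. The part of these cells in the Dusp2 values was not tested.

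**Figure D4:**
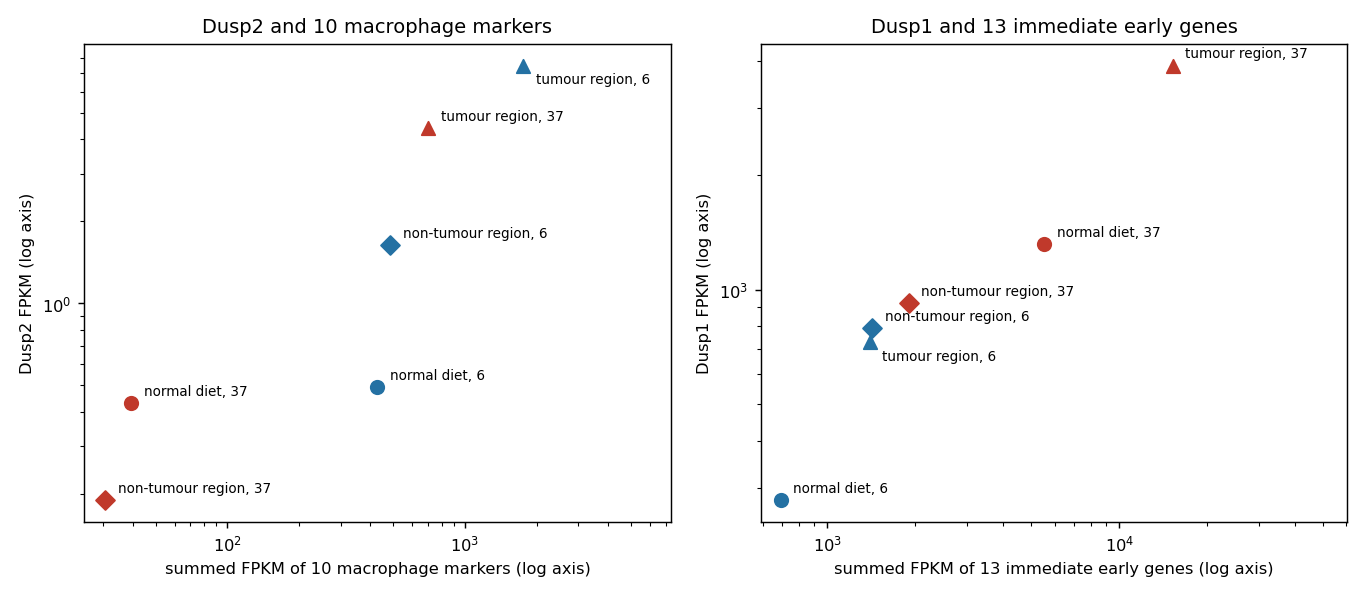
Left, Dusp2 FPKM against the summed FPKM of 10 macrophage markers; right, Dusp1 FPKM against the summed FPKM of 13 immediate early genes, in the 6 libraries (log axes; red 37 degrees, blue 6 degrees; triangles tumour region, diamonds non-tumour region, circles normal diet). The tumour libraries have the highest Dusp2 and macrophage values at their temperature. Both have the same order over the 6 libraries. The non-tumour libraries of 37 and 6 degrees lie apart in macrophage sum (30.6 and 486 FPKM) and in Dusp2 (0.189 and 1.64 FPKM). The normal diet libraries of 37 and 6 degrees lie apart in macrophage sum (39.4 and 426 FPKM) and close in Dusp2 (0.430 and 0.494 FPKM). The tumour library of 37 degrees has the highest Dusp1 and immediate early values.

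Dusp8 was at 4.42 and 2.42 FPKM in the tumour region at 37 and 6 degrees, against 1.43 and 0.301 FPKM in normal diet, 3.09-fold and 8.05-fold higher. The tumour libraries lay above both normal diet libraries. The log2 difference was 1.28 ± 0.20 (SE, limma adjusted p = 0.0210). The call was lost without the tumour or the normal diet library of 37 degrees (adjusted p = 0.0886 and 0.0678), without the tumour or the normal diet library of 6 degrees (0.0562 and 0.103), with no low-value filter (0.0594) and with no temperature term (0.211), within a range of 0.0203 to 0.211 over 12 alternatives. With a pseudocount of 0.1 FPKM the log2 difference was 2.11. Beside the macrophage markers above, 2 of 4 tested smooth muscle and portal fibroblast markers (Actg2 and Cnn1) and 3 of 10 endothelial markers rose in the tumour region. The sum of the 7 smooth muscle and portal markers was 48.7 and 85.9 FPKM in the tumour region at 37 and 6 degrees, against 23.4 and 17.7 FPKM in normal diet. The part of these cells in the Dusp8 values was not tested.

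Dusp5 was at 82.4 and 54.0 FPKM in the tumour region at 37 and 6 degrees, against 22.9 and 9.83 FPKM in normal diet. Its log2 difference of 2.07 ± 0.46 did not pass (SE, limma adjusted p = 0.0526), and it ranged from 1.44 to 2.71 over its alternatives. Without the non-tumour library of 37 or of 6 degrees the difference stayed at 2.07. Those fits are the same test, since each rests on the same tumour and normal diet libraries. In them the non-tumour pair no longer adds to the residual spread. Dusp1 was at 3880 and 726 FPKM in the tumour region, against 1318 and 279 FPKM in normal diet, with a log2 difference of 1.47 ± 0.53 (SE, limma adjusted p = 0.164). For Dusp1 too the difference stayed at 1.47 without either non-tumour library, and it ranged from 0.87 to 2.06 over its alternatives. For both genes the tumour libraries were above the normal diet library of the same temperature, and for Dusp5 above both.

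Of the remaining genes, Dusp6 had 159 and 120 FPKM in the tumour region, against 110 and 56.0 FPKM in normal diet (log2 difference 0.81 ± 0.27, SE, limma adjusted p = 0.136). Dusp16 had 3.50 and 3.57 FPKM, against 2.04 and 2.14 FPKM in normal diet (0.55 ± 0.15, adjusted p = 0.0834). The Dusp16 values of a source differed little between temperatures and the sources did not overlap. Dusp4, Dusp7 and Dusp10 differed by 0.29, -0.18 and -0.14, with limma adjusted p between 0.420 and 0.778.

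The third comparison, of the non-tumour region with normal diet, uses the same normal diet libraries as the second. None of the 9 genes passed, against 5.56% of all genes tested. The median of the 9 was 0.49 on the log2 scale, against 0.03 for all genes. At an unadjusted limma p under 0.05, 3 of 9 were higher, against 1461 of all 11559 genes tested. Dusp8 was at 2.48 and 1.72 FPKM in the non-tumour region at 37 and 6 degrees, against 1.43 and 0.301 FPKM in normal diet (log2 difference 0.79 ± 0.20, SE, limma adjusted p = 0.0873). Dusp5 was at 31.7 and 58.6 FPKM, against 22.9 and 9.83 FPKM in normal diet, 1.39-fold higher at 37 degrees and 5.97-fold higher at 6 degrees (log2 difference 1.46 ± 0.46, adjusted p = 0.147). Dusp1 differed in direction between temperatures: it was at 922 FPKM in the non-tumour region at 37 degrees, against 1318 FPKM in normal diet, and at 792 FPKM at 6 degrees, against 279 FPKM (log2 difference over both temperatures 0.49 ± 0.53, adjusted p = 0.672). In single pairs none of the 9 was past 2-fold higher in the non-tumour region at 37 degrees (2.47% of all genes), and Dusp1, Dusp5, Dusp6 and Dusp8 were at 6 degrees (3.53%). The other 6 genes had limma adjusted p between 0.187 and 0.977. For Dusp5, Dusp8 and Dusp16 all 4 high-fat libraries lay above both normal diet libraries, 3 of 9 genes against 15.5% of all genes.

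**Figure D5:**
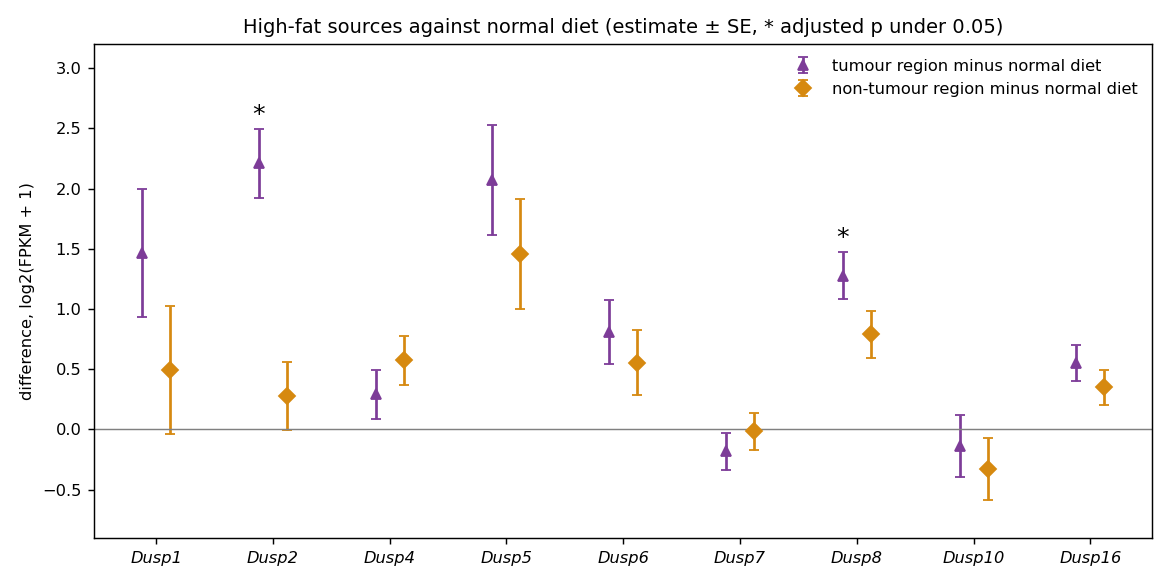
Log2 differences (y axis, log2(FPKM + 1) scale, limma estimate with SE) of the tumour region (triangles) and the non-tumour region (diamonds) from normal diet for the 9 phosphatase genes tested; both use the same normal diet libraries. Stars mark Dusp2 and Dusp8, at 2.21 and 1.28 in the tumour region, the genes with an adjusted p under 0.05.

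Between the tumour and the non-tumour region none of the 9 genes passed, against 0.450% of all genes. Dusp2, at 4.40 and 7.46 FPKM in the tumour region at 37 and 6 degrees, against 0.189 and 1.64 FPKM in the non-tumour region, had the largest difference of the 9, 1.93 ± 0.28 on the log2 scale (SE, limma adjusted p = 0.0734). Dusp1 was 4.21-fold higher in the tumour region at 37 degrees and at 0.917 of the non-tumour level at 6 degrees (log2 difference 0.97 ± 0.53, adjusted p = 0.582). Dusp5 and Dusp6 had the same form, 2.60-fold and 1.49-fold higher in the tumour region at 37 degrees and at 0.921 and 0.958 of the non-tumour level at 6 degrees.

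The members were also set against each other and against all other genes by the shape of their profiles over the 6 libraries, measured as the root mean square (RMS) difference of centred log2 values. The libraries share sources and depth, so likeness is a description. Among the 36 pairs of tested members, Dusp6 and Dusp8 had the smallest RMS difference (0.27, Pearson r = 0.93 over 6 libraries). Dusp1 and Dusp7 had the largest (1.34, r = -0.68). By Pearson r, Dusp5 and Dusp6 were most alike (r = 0.94, RMS 0.57). The log2(FPKM + 1) scale narrows the span of genes at low levels, such as Dusp8 (14.7-fold in FPKM, against 2.84-fold for Dusp6). The genes nearest to Dusp1 were Phlda1 (RMS 0.18), Sik1 (0.25) and Jun (0.28), with a median of 1.14 over 11550 genes. Those nearest to Dusp5 were Rasd1 (0.26), Ch25h (0.32) and Ccl2 (0.35). Nearest to Dusp6 were Actg1 (0.13), Cdr2 (0.13) and Srf (0.14), to Dusp8 Plat (0.12), Tnfrsf12a (0.12) and Sdc4 (0.15), and to Dusp4 Eya4 (0.13), Gm17644 (0.15) and Tnip2 (0.16). Dusp7, Dusp10 and Dusp16 varied too little for such a list.

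Few of the other genes of the MAP kinase pathway passed. Of 9 tested MAP kinase genes none passed for temperature, and in the tumour region Mapk3 (ERK1) fell, with 76.7 and 78.8 FPKM at 37 and 6 degrees, against 113 and 106 FPKM in normal diet (log2 difference -0.49 ± 0.08, SE, limma adjusted p = 0.0282). None of 24 upstream kinases passed for temperature, and in the tumour region Taok3, which activates p38 signalling, rose (0.57 ± 0.11, adjusted p = 0.0373). Of 10 kinases that MAP kinases act on, the RSK genes Rps6ka1 and Rps6ka2 fell at 37 degrees (-1.80 ± 0.16 and -1.13 ± 0.14, adjusted p = 0.00931 and 0.0147), as did all 10 endothelial and 7 of 9 macrophage markers tested. The part of those cells in the RSK values was not tested. Rps6ka1 rose in the tumour region (1.40 ± 0.19, adjusted p = 0.0169). None of 9 other dual specificity phosphatases and none of 6 other MAP kinase phosphatases passed for temperature.

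Among 8 tested Sprouty, Spred and related feedback inhibitors, Spry1 rose at 37 degrees, with 414, 348 and 415 FPKM in the tumour, non-tumour and normal diet libraries of 37 degrees, against 249, 235 and 235 FPKM in those of 6 degrees (log2 difference 0.71 ± 0.08, SE, limma adjusted p = 0.0128). Its libraries of 37 degrees all lay above those of 6 degrees, as did those of 8.31% of genes tested. The stellate markers that rose at 37 degrees differed by 0.39 (Cygb) to 0.52 (Hand2), and their part in the Spry1 values was not tested. Errfi1, an inhibitor of the EGF receptor, rose in the tumour region (2.02 ± 0.31, adjusted p = 0.0204). Of 10 tested ERK output genes none passed for temperature. At an unadjusted limma p under 0.05, 7 were higher and 1 was lower, against 8.52 and 12.1% of all genes. Ccnd1 (cyclin D1) rose in the tumour region (1.24 ± 0.17, adjusted p = 0.0165) and Emp1 fell in the non-tumour region against normal diet (-1.56 ± 0.23, adjusted p = 0.0233).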

How the data were processed

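RNA sequencing values of 6 libraries, 1 per group, were used. The authors deposited FPKM per gene symbol for each library, made with TopHat2 2.1.1, Bowtie2 and Cuffdiff 2.2.1 on mm10, per the submitters' processing notes. Settings, annotation, strand use and scaling were not given in the sources used here, so reads from overlapping genes on the other strand could be included. FPKM hold no counts; depth was estimated from the steps between low values, giving 1.60e+07 to 2.25e+07 fragments, at which 1 fragment on 1 kb was worth 0.0445 to 0.0625 FPKM. Estimated fragments cover counting error only.

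From these values, 11559 genes were tested: those averaging 1 FPKM or more, less 1306 small RNA symbols. Log2(FPKM + 1) was fitted with limma 3.58.1 in R 4.3.3, with source and temperature as additive terms (2 residual degrees of freedom, an intensity trend and Benjamini-Hochberg adjustment over all genes tested). A further term for 1 source tested its temperature difference against the others. Scripts were tested on simulated data. The source term pairs the libraries of 37 and 6 degrees. Alternatives were another pseudocount, filters, scalings and prior, a dropped term and left-out libraries. When libraries were left out, the lone sample of a group was assumed to vary like the rest.

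All 10 phosphatase genes are named; of other lists, the genes that passed, at most 4 by p, plus sort markers, and for likeness the 3 nearest genes to each member with a log2 range of at least 1 (those of Dusp2 are not reported here). The members and lists were chosen with earlier results of these data known. Gene positions are from RefSeq GRCm38.p6 and overlaps also from GENCODE.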

Additional observations from a re-analysis of the deposited data

How the results depend on the processing

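Of the phosphatase differences, 33 were recomputed. These were all those for temperature and for each high-fat region against normal diet. In the other comparisons only differences with an unadjusted limma p under 0.05 were recomputed, so changes of direction in the rest are not covered. Of 353 alternatives, 328 kept direction and side of the threshold, 9 lost the call, 5 gained it and 11 changed direction. Only Dusp2 and Dusp8 between tumour region and normal diet had a call to lose. Dusp2 kept it in 9 and Dusp8 in 6 of 12 alternatives, and neither was tested with a mean of at least 5 FPKM. For every other result, keeping the side of the threshold means that it still did not pass. All lost calls were those of Dusp2 and Dusp8 between tumour region and normal diet, given with their values above. The gained ones, of Dusp1 and Dusp5, all came from fits without a non-tumour library or pair. Between tumour region and normal diet the fits without either non-tumour library are the same test. Their gains are thus the same result counted again. The changes of direction among these 33 were as follows. For temperature, Dusp16 was at 0.12 with quantile normalization and between -0.036 and 0.018 with a pair left out, and Dusp5 between -0.13 and 0.87. Between tumour region and normal diet, Dusp10 lay between -0.52 and 0.24 with a library left out. Between non-tumour region and normal diet, leaving out a library gave -0.56 to 1.55 for Dusp1, -0.14 to 0.70 for Dusp2, -0.19 to 0.16 for Dusp7 and -0.77 to 0.12 for Dusp10. The cause was not tested.

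Counts over all genes moved more. For temperature, 593 genes passed, against 330 with a mean of at least 5 FPKM, and 0 with no filter (by limma's unadjusted p under 0.05, 1019 higher and 1819 lower) and 0 without a source term (424 and 814). Leaving out a pair gave 83 to 458. Between tumour region and normal diet, 1081 passed, against 681 with a mean of at least 5 FPKM, 504 with no filter, 4 without a temperature term and 303 to 961 with a library left out. Between non-tumour region and normal diet, 643 passed, against 265 with no filter, 4 without a temperature term and 0 to 898 with a library left out. Between tumour and non-tumour region, 52 passed, against 0 with a pseudocount of 0.1 FPKM (722 higher and 417 lower unadjusted), a mean of at least 5 FPKM (439 and 321), no filter (1153 and 501) or no temperature term (324 and 204), and 0 to 161 with a library left out. For the non-tumour temperature difference, 2 genes passed with a pseudocount of 0.1 FPKM, against 0. With that pseudocount the genes past 2-fold in single pairs numbered 83 higher at 37 degrees in the non-tumour pair and 155 in normal diet, 472 lower in the tumour region and 477 higher and 507 lower in the non-tumour region against normal diet at 37 degrees, and 102 and 139 lower in the tumour than the non-tumour region at 37 and 6 degrees.

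The main fit pairs the libraries of 37 and 6 degrees by source. No paired analysis by replicate number was possible because the labels give none. Depth limits Dusp14 and the low values of Dusp2 and Dusp8.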

Other observations

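Other genes of the lists were noticed after their values were seen. Map3k8, an upstream kinase that activates ERK, was at 94.1, 15.9 and 24.5 FPKM in the tumour, non-tumour and normal diet libraries of 37 degrees, against 14.3, 16.2 and 20.0 FPKM in those of 6 degrees. It stood high in the tumour library of 37 degrees alone. Dusp18, a dual specificity phosphatase outside the 10 described, was at 3.10, 0.385 and 1.66 FPKM at 37 degrees, against 0.770, 0.501 and 0.662 FPKM at 6 degrees. Its tumour and normal diet libraries of 37 degrees were above all 3 of 6 degrees, and its non-tumour library of 37 degrees was below all 3.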
